A study of Homo sapiens with 6 samples.

Results

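Eph receptors and ephrins were followed across 3 cultures of the human neuroblastoma line SK-N-AS, for the genes EPHA2, EPHA3, EPHA4, EPHA5, EPHA7, EPHB2, EPHB3, EFNB1, EFNB2 and EFNB3. Of these 10 names, 9 carried at least 1 named probe set in the value table, among 19775 genes with a probe set of a single symbol, and EPHB2 was not analysed here. The 9 genes had 23 probe sets, and for each gene the leading probe set was chosen by its mean log2 signal over the 6 arrays. The 10 names were proposed with earlier results of these arrays in view, so counts and p-values over them describe the genes and give no support to the choice. iCSC cells had received 2.5 uM 5AdC, a cytidine analogue that blocks DNA methyltransferases, for 5 days while attached and then formed spheroids without serum. Sphere cells formed spheroids without serum and without the drug, and Monolayer cells grew attached without the drug. No array held attached cells given the drug, so drug and culture form cannot be told apart in iCSC against Monolayer. Each culture was measured on 2 Affymetrix arrays. All came from the same line, and the labels do not state whether the paired arrays held RNA of separately grown cells, so the p-values reflect array-to-array spread that may be technical.

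Eph receptors form a large family of receptor tyrosine kinases, and their ligands, the ephrins, are themselves bound to the membrane. Ephrin-A ligands hang on a lipid anchor and ephrin-B ligands cross the membrane with a short tail, so contact between cells can send a forward signal through the receptor and a reverse signal through the ligand. The contact often ends in repulsion, which steers axons, keeps tissue borders sharp and guides neural crest cells, the embryonic source of the sympathetic lineage from which neuroblastoma arises.

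The sequences before the transcription starts of EPHA3, EPHA4, EPHA7 and EFNB2 are shown because these genes had the widest range of culture means (9.77, 8.14, 7.59 and 2.41 on the log2 scale, of which the first 3 involve values not above background and are not measured folds) and because 5AdC acts on DNA methylation, which in human cells sits mostly at CG dinucleotides. Each run gives the 250 bases before the outermost start of the gene, from RefSeq on GRCh38.p14, read 5′ to 3′ on the strand of the gene, with CG in capitals. EPHA3 lies at chr3:89107371-89107620 on the plus strand, EPHA4 at chr2:221574203-221574452 on the minus strand, EPHA7 at chr6:93419560-93419809 on the minus strand and EFNB2 at chr13:106535663-106535912 on the minus strand.
EPHA3: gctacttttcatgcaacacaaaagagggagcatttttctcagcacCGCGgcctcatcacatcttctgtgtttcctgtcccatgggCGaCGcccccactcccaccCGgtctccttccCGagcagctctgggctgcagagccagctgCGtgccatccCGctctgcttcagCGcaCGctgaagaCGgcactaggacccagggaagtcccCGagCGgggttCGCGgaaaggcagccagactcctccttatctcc
EPHA4: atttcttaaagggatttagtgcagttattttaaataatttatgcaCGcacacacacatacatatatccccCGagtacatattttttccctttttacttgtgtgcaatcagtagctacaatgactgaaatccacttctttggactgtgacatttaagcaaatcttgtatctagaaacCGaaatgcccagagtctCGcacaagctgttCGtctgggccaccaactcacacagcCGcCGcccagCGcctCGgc
EPHA7: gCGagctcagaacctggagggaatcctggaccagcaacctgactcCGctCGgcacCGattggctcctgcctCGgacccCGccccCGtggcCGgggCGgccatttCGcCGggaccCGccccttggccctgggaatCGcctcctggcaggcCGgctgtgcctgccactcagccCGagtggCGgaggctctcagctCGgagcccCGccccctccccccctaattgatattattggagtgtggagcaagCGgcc
EFNB2: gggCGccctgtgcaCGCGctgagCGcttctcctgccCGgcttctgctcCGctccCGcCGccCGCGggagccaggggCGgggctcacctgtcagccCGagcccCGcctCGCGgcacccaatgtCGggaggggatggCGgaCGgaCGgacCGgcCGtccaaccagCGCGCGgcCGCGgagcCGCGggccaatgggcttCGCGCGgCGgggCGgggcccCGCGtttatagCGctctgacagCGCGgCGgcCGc

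The EFNB2 run held 40 CG dinucleotides, a number that 2.16% of 35093 such windows reach, against 19 in the EPHA7 run (34.6% of windows reach it), 15 in the EPHA3 run (42.9%) and 9 in the EPHA4 run (54.1%). Over all windows the median was 11. A further start of EPHA4 lay behind a window with 30, and further starts of EPHA7 behind windows with 20 and 14. RefSeq windows were found for 9 of the 10 names, 14 windows in all. The motif TGAGTCA, bound by AP-1, was in none of the 14 on either strand and in 4.20% of all windows, and GGAATG, bound by TEAD factors, was in the EPHA2 window and in 11.9% of all windows. DNA methylation was not measured, and these counts are a description of the sequence.

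Levels are log2 GCRMA signals, and a probe set under log2 5 was taken as not above background. The median of the 54675 probe sets was 2.78 to 2.83 per array. Across tested genes (genes are no independent replicates), arrays of the same culture correlated at 0.985 to 0.996 and arrays of different cultures at 0.729 to 0.859. Of 12 sympathoadrenal neuroblast markers 11 had a named probe set, and by culture mean 9 stood above background in iCSC, 10 in Sphere and 4 in Monolayer. Their summed linear signal was 11450 to 14130 in iCSC, 39820 to 46940 in Sphere and 969 to 1121 in Monolayer. Monolayer lacked most of these markers, STMN2, TH and CHGB included, but not GATA2, GATA3, ISL1 and, at 5.03, HAND2. Of these, HAND2 had the order of the sum, at 5.29 in iCSC and 5.98 in Sphere, while GATA2, GATA3 and ISL1 did not. ISL1 averaged 7.85 in iCSC, 10.33 in Sphere and 8.99 in Monolayer. GATA2 averaged 4.36, 6.02 and 5.96 in the same order, and GATA3 8.19, 12.31 and 8.44. Marker levels are those of the probe set with the highest mean. Of 6 endothelial markers 5 were under background on all 6 arrays in that probe set, PECAM1, CDH5, KDR and CLDN5 among them, and the other, the receptor TEK, averaged 3.66 in iCSC, 2.96 in Sphere and 7.77 in Monolayer. A further probe set of PECAM1 averaged 3.74 in iCSC, 5.59 in Sphere and 2.98 in Monolayer, above background in Sphere. Their sum was 73.3 to 84.6 in iCSC, 65.2 to 67.2 in Sphere and 265 to 288 in Monolayer. Of 7 leukocyte markers 6 had a named probe set, 5 of which were under background on all arrays, while PTPRC averaged 2.86 in iCSC, 12.47 in Sphere and 11.74 in Monolayer (sums 29.5 to 29.8, 5509 to 5900 and 3223 to 3699). Schwann cell markers (3 with a probe set) summed to 147 to 226 in iCSC, 32.2 to 42.1 in Sphere and 48.1 to 49.6 in Monolayer. Of these, ERBB3 averaged 7.41 in iCSC, 4.604 in Sphere and 5.18 in Monolayer, and SOX10 and S100B were under background on all arrays. The 7 fibroblast markers summed to 8680 to 13380 in iCSC, 13140 to 14160 in Sphere and 2545 to 2680 in Monolayer. Mesenchymal tumour cells also express several of them. Their culture means did not share an order. COL1A2 averaged 12.51 in iCSC and was under background on all Sphere and Monolayer arrays. LUM averaged 10.22 in iCSC, 13.18 in Sphere and 7.53 in Monolayer, and DCN and PDGFRB were also highest in Sphere. COL1A1 and THY1 were highest in iCSC, as COL1A2 was, and PDGFRA in Monolayer. The part of any of these lists in the results below was not tested.

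The receptors EPHA3 and EPHA4 were measured in Monolayer alone. EPHA3, an axon guidance receptor that binds ephrin-A5, read 3.70 and 3.18 in iCSC, 3.07 and 3.16 in Sphere, and 12.85 and 12.92 in Monolayer. Both spheroid cultures were under background and both Monolayer arrays far above it, with no overlap. EPHA3 was at least 236-fold lower in iCSC and in Sphere than in Monolayer (limma, adjusted p = 8.58e-07 and 6.05e-07). These bounds take every value under log2 5 as 5, while the p-values test the values as deposited. In bulk samples, fewer cells that carry a transcript and less transcript per cell cannot be told apart.

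EPHA4, which binds ephrins of both classes and steers spinal and cortical axons, read 2.87 and 2.88 in iCSC, 2.84 and 2.94 in Sphere, and 10.89 and 11.14 in Monolayer. It was under background in both spheroid cultures and at least 64.6-fold lower in each than in Monolayer (limma, adjusted p = 7.41e-07 for iCSC and 6.05e-07 for Sphere). EPHA3 and EPHA4 entered the test through Monolayer only, so the filter fixed the direction of these changes. Between iCSC and Sphere neither gene had a level above background to compare.

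EPHA7 ran the other way. This receptor repels cortical and retinal axons, and it also exists in a short form without the kinase domain. It read 10.45 and 9.71 in iCSC, 9.03 and 8.91 in Sphere, and 2.46 and 2.52 in Monolayer, where it was under background on both arrays. EPHA7 was at least 33.8-fold higher in iCSC and at least 15.6-fold higher in Sphere than in Monolayer (limma, adjusted p = 2.99e-06 and 3.93e-06), a direction that the filter fixed because only the spheroid cultures carried it into the test. The iCSC arrays lay above the Sphere arrays, by 1.11 ± 0.25 (log2, SE, adjusted p = 0.0149). This call was lost without Sphere replicate 1 (adjusted p = 0.0711), without Sphere replicate 2 (0.0890) and without variance moderation (0.101, range over 17 alternatives 0.00295 to 0.101). The order of its levels was therefore Monolayer lowest, then Sphere, then iCSC, with the upper step less firmly measured than the lower.

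EPHA2, a receptor mainly for ephrin-A1 that is found in many epithelial and tumour cells, was above background everywhere. It read 7.71 and 6.80 in iCSC, 7.89 and 8.55 in Sphere, and 9.26 and 9.31 in Monolayer. The Monolayer arrays were the highest and did not overlap with either spheroid culture. iCSC was 2.03 ± 0.34 below Monolayer (log2 change -2.03, SE 0.34, limma, adjusted p = 0.00268), a call lost without variance moderation (0.0525, range 0.00172 to 0.0525). Sphere changed by -1.07 ± 0.34 from Monolayer (adjusted p = 0.0322, range 0.0101 to 0.191). That call was lost without Monolayer replicate 1 (0.127), without Monolayer replicate 2 (0.139), without Sphere replicate 1 (0.191), without the filter (0.0822) and without variance moderation (0.156). The difference between iCSC and Sphere, -0.96 ± 0.34 with a 95% interval of -1.77 to -0.15, did not pass (adjusted p = 0.0638, range 0.0162 to 0.2997) and passed without iCSC replicate 1 (0.0162). EPHA5, a receptor of the developing brain, lay between 2.13 and 2.23 over its 3 probe sets and 6 arrays and was not above background in any culture.

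EPHB3, an EphB receptor of commissural axons and of intestinal crypts, was lowest in Sphere. It read 6.52 and 6.08 in iCSC, 5.01 and 4.86 in Sphere, and 5.999 and 6.002 in Monolayer, so 1 of the 2 Sphere arrays was under background. EPHB3 was 1.36 ± 0.20 higher in iCSC than in Sphere (log2, SE, limma, adjusted p = 0.00279), and it changed by -1.06 ± 0.20 in Sphere against Monolayer (adjusted p = 0.00427). Both calls held under the 16 alternatives in which EPHB3 could be tested. iCSC and Monolayer, the neighbours at the top of the order, did not overlap but differed by 0.30 ± 0.20, with an interval of -0.19 to 0.79 (adjusted p = 0.254).

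Among the ephrin-B ligands, EFNB2 was highest in Sphere. Ephrin-B2 marks arterial endothelium, where it faces EPHB4 on veins, and it guides migrating neural crest cells. EFNB2 read 9.51 and 9.93 in iCSC, 11.66 and 11.28 in Sphere, and 8.95 and 9.17 in Monolayer, and no culture overlapped with another. EFNB2 was 2.41 ± 0.19 higher in Sphere than in Monolayer, or 5.31-fold (log2, SE, limma, adjusted p = 9.25e-05). In iCSC it changed by -1.75 ± 0.19 against Sphere, or 3.37-fold lower (adjusted p = 0.000775). Both calls held under all 17 alternatives. iCSC remained 0.66 ± 0.19 above Monolayer (adjusted p = 0.0266, range 0.0150 to 0.157). This smaller step was lost without Monolayer replicate 1 (0.157), without Monolayer replicate 2 (0.0689), without iCSC replicate 2 (0.105), without the filter (0.0649) and without variance moderation (0.133).

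EFNB3, a midline barrier ligand that repels axons bearing EPHA4, read 8.55 and 7.94 in iCSC, 8.38 and 7.94 in Sphere, and 8.05 and 7.74 in Monolayer. The 3 cultures overlapped, and no difference passed the test. iCSC differed from Sphere by 0.09 (95% interval -0.54 to 0.71, limma, adjusted p = 0.828) and from Monolayer by 0.35 (interval -0.28 to 0.97, adjusted p = 0.295), and Sphere from Monolayer by 0.26 (interval -0.36 to 0.88, adjusted p = 0.424). EFNB1, the X-linked ligand altered in craniofrontonasal syndrome, lay between 2.81 and 2.87 on its single probe set and was under background on all 6 arrays.

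**Figure D1:**
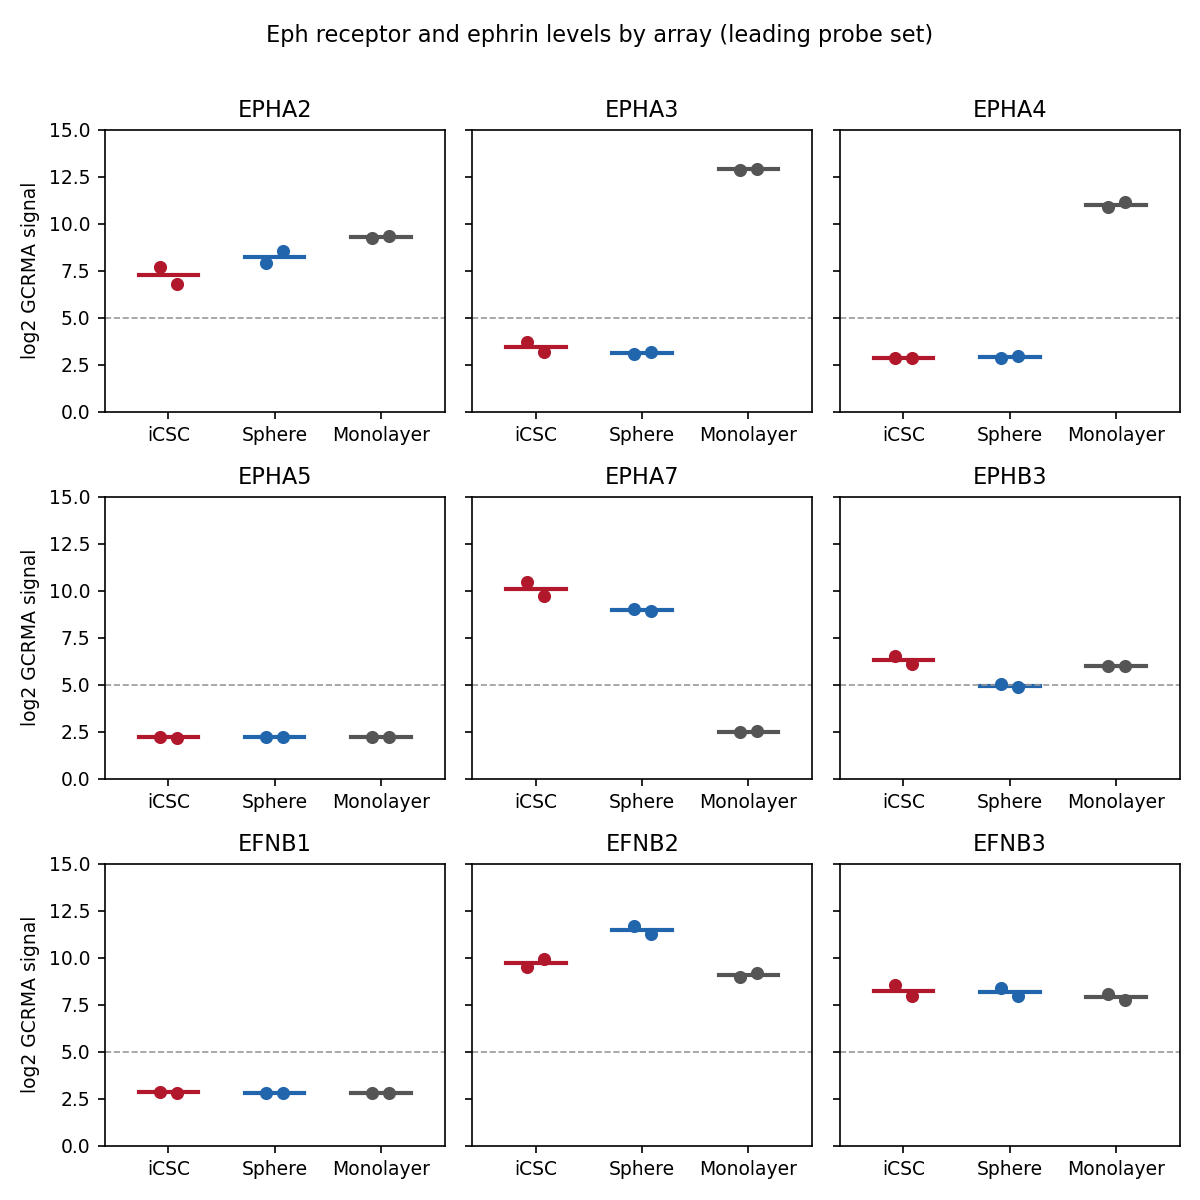
Log2 GCRMA signal of the leading probe set of 9 genes (vertical axis) in iCSC, Sphere and Monolayer. Points are single arrays, bars are means of 2 arrays and the dashed line is the background limit of log2 5. EPHA3 and EPHA4 stand above it in Monolayer only, EPHA7 in both spheroid cultures only, and EPHA5 and EFNB1 nowhere.

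Of the 10 names, 7 entered the test, and EPHA5 and EFNB1 did not pass the filter on low values. Between iCSC and Sphere, EPHA7 and EPHB3 were called higher and EFNB2 lower, which is 3 of 7 where 38.5% of all tested genes were called (19.3% higher and 19.2% lower), a share near the background. Between iCSC and Monolayer 5 of 7 were called, EPHA7 and EFNB2 higher and EPHA2, EPHA3 and EPHA4 lower, where the background was 55.6% (29.0% higher and 26.6% lower). Between Sphere and Monolayer 6 of 7 were called, EPHA7 and EFNB2 higher and EPHA2, EPHA3, EPHA4 and EPHB3 lower, where 59.0% of tested genes were called (30.0% higher and 29.1% lower). In the comparisons with Monolayer, EPHA3, EPHA4 and EPHA7 had to differ once they had passed the filter. Any 2 of the 3 comparisons share a culture, so their calls are not independent of each other.

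The other probe sets of these genes followed the direction of the called changes of the leading ones where they rose above background. EPHA4 had 4 probe sets above background in Monolayer, at culture means from 7.18 to 11.01, and all 4 were under it in both spheroid cultures. Its remaining probe set was under background on every array. EPHA3 had a further probe set at 7.07 and 6.70 in Monolayer that was under background in the spheroid cultures, and another that was under it on every array. EPHA7 had 3 probe sets that passed the filter, each with its highest mean in iCSC and each under background in Monolayer, and in 1 of them a Sphere array was also under background, at 4.84. Its remaining probe set reached log2 5 on 1 iCSC array only. The second EFNB2 probe set read 6.12 and 7.05 in iCSC, 8.70 and 8.53 in Sphere, and 5.95 and 5.60 in Monolayer, again with Sphere on top. The second EPHB3 probe set read 5.72 and 5.25 in iCSC, 4.51 and 3.77 in Sphere, and 5.75 and 5.36 in Monolayer, again with Sphere lowest. Both of its Sphere arrays were under background. Its iCSC and Monolayer arrays overlapped, with a difference of means of -0.07, unlike the leading probe set. No probe set above background was called against its leading probe set. EPHA2 had a single probe set, and EFNB3 had 1 above background and 1 under it on all arrays. The probe sets share their arrays and RNA, so they check the probes and not the cultures.

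**Figure D2:**
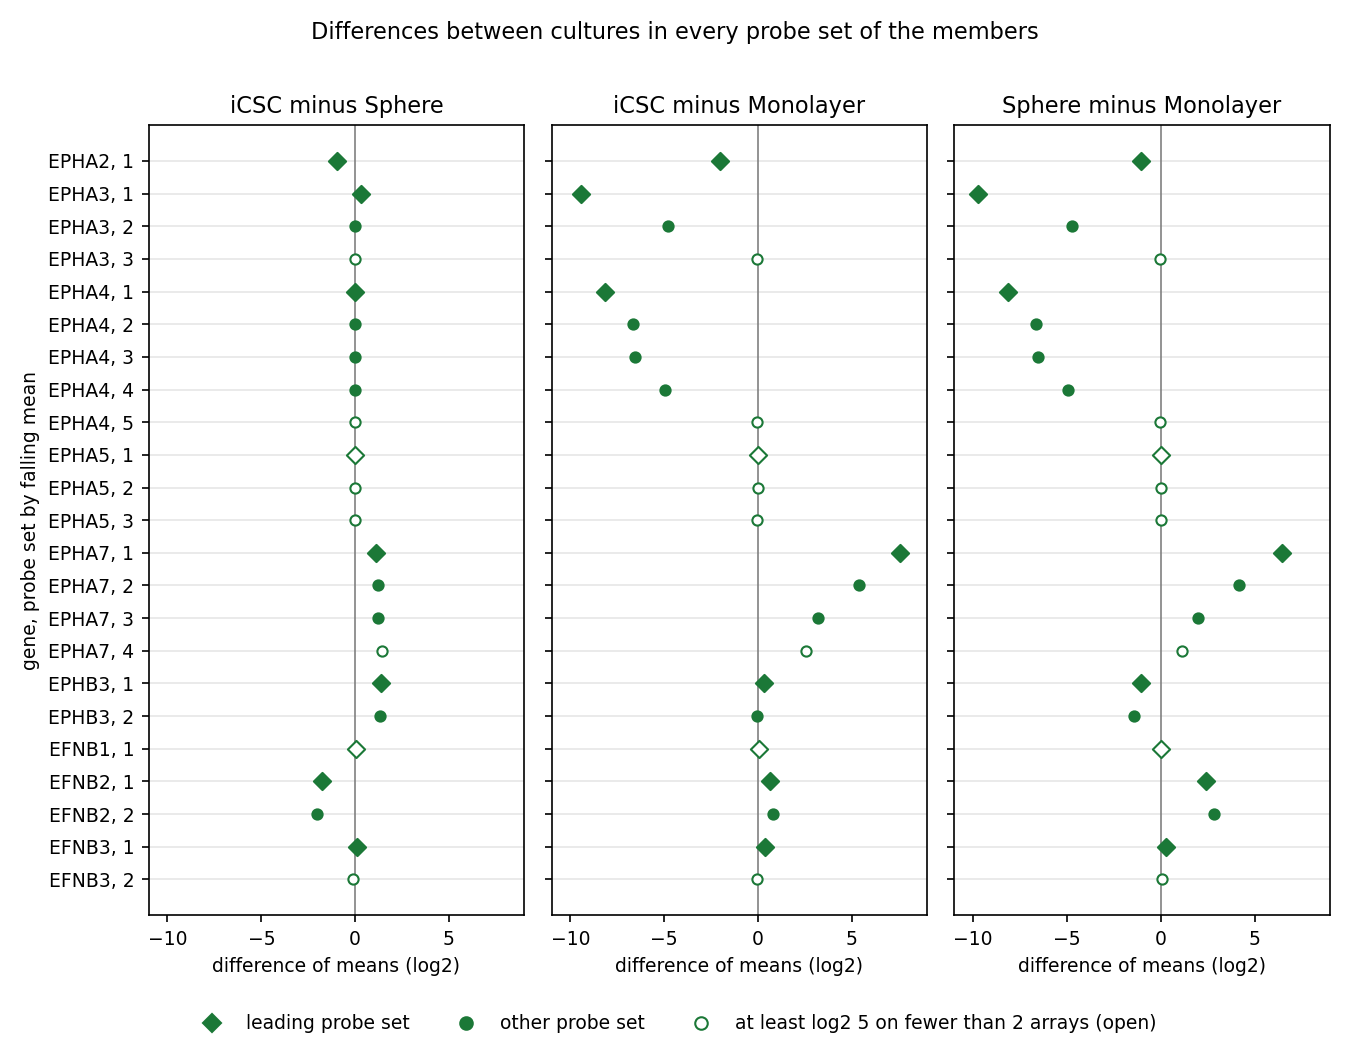
Difference of culture means on the log2 scale (horizontal axis) for each of the 23 probe sets, 1 row each, in 3 panels for iCSC minus Sphere, iCSC minus Monolayer and Sphere minus Monolayer. Diamonds are leading probe sets, and open symbols reached log2 5 on fewer than 2 arrays. Changes of EPHA3, EPHA4 and EPHA7 against Monolayer start from values under background, so their plotted size is not a measured fold.

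The tested gene whose values ran most like those of EPHA3, the gene with the widest range, was POSTN, a secreted matrix protein of mesenchymal cells. Likeness was taken as the smallest Euclidean distance over the 6 arrays between log2 values centred per gene, and POSTN lay at 0.63. It read 2.43 and 2.44 in iCSC, 2.44 and 2.48 in Sphere, and 11.67 and 11.84 in Monolayer. C19orf33 followed at 0.96 and C8orf34 at 0.999. All 3 were under background in both spheroid cultures.

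Of the 12 other Eph and ephrin genes 6 entered the test, and EPHA1, EPHA6, EPHA8, EPHA10, EPHB1 and EPHB6 were under background on all 6 arrays in all their probe sets. EPHB4, the receptor of ephrin-B2, read 9.21 and 8.87 in iCSC, 5.19 and 5.12 in Sphere, and 9.13 and 9.002 in Monolayer, so it was low in the culture in which EFNB2 was highest. It was 3.89 ± 0.17 higher in iCSC than in Sphere and changed by -3.91 ± 0.17 in Sphere against Monolayer (log2, SE, limma, adjusted p = 1.28e-05 and 5.44e-06). A second EPHB4 probe set read 6.65 and 6.62 in iCSC, 4.88 and 5.75 in Sphere, and 6.83 and 6.59 in Monolayer, and the mean of both probe sets gave smaller changes of 2.604 in iCSC against Sphere and -2.65 in Sphere against Monolayer (adjusted p = 0.000114 and 4.79e-05). In the leading probe set, EPHB4 differed by -0.02 between iCSC and Monolayer (95% interval -0.42 to 0.38, adjusted p = 0.925). EFNA4, an ephrin-A ligand, had the same shape, at 8.51 and 8.46 in iCSC, 6.14 and 6.06 in Sphere, and 8.72 and 8.53 in Monolayer, with changes of 2.38 ± 0.15 in iCSC against Sphere and -2.53 ± 0.15 in Sphere against Monolayer (adjusted p = 5.63e-05 and 2.04e-05).

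EFNA5, a ligand of EPHA3 and other EphA receptors, was instead high in both spheroid cultures. It read 10.61 and 10.32 in iCSC, 10.71 and 10.75 in Sphere, and 8.11 and 7.70 in Monolayer. EFNA5 was thus higher where EPHA3 and EPHA4 were under background, by 2.56 ± 0.17 in iCSC and by 2.82 ± 0.17 in Sphere against Monolayer (log2, SE, limma, adjusted p = 5.29e-05 and 2.46e-05). The EphA receptor EPHA7 instead ran with EFNA5, averaging 10.08 in iCSC, 8.97 in Sphere and 2.49 in Monolayer. The ligands EFNA2 and EFNA4 had their highest means in Monolayer, as EPHA3 and EPHA4 did. Any relation between receptor and ligand levels was not tested. Between iCSC and Sphere EFNA5 did not pass in its leading probe set (-0.27 ± 0.17, adjusted p = 0.260). A further probe set was called lower in iCSC, at -0.42 (adjusted p = 0.0296 in the alternative in which it led). EFNA1, the main ligand of EPHA2, read 7.52 and 6.74 in iCSC, 6.09 and 6.16 in Sphere, and 4.56 and 3.49 in Monolayer, where both arrays were under background. Against Monolayer EFNA1 was at least 4.37-fold higher in iCSC and at least 2.18-fold higher in Sphere (adjusted p = 0.000942 and 0.00443, the Sphere call lost without variance moderation at 0.0621, range 0.00152 to 0.0621), and Monolayer held the highest EPHA2. EFNA1 passed the filter through the spheroid arrays only, so the filter fixed the direction of both changes. EFNA2 and EFNA3 were lowest in Sphere, and in iCSC against Sphere they were higher by 1.65 ± 0.28 and 1.39 ± 0.19 (adjusted p = 0.00485 and 0.00203). EFNA2 was under background on 1 of 2 Sphere arrays, and its call was lost without variance moderation (0.0662, range 0.00258 to 0.0662).

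Counted together by leading probe set, 4 of the 6 tested genes outside the named set were called higher in iCSC than in Sphere and none lower, beside 19.3% and 19.2% of all tested genes. Against Monolayer, 3 were called higher and 1 lower in iCSC (29.0% and 26.6% of all tested genes), and 2 higher and 4 lower in Sphere (30.0% and 29.1%). In iCSC against Monolayer the lower call, EFNA2 (adjusted p = 0.0438), was lost in 6 of 17 alternatives and a higher call, EFNA3 (adjusted p = 0.0434), in 8 of 16, and the count was 2 without the filter, with it at log2 7, without variance moderation, without Monolayer replicate 1, without Monolayer replicate 2 and without iCSC replicate 1. With the filter at log2 7, EFNA1 and EFNA3 were not tested, while EFNA2 and EFNA5 kept their calls (limma, adjusted p = 0.0387 and 3.01e-05). The median change of the 6 genes was 1.52 for iCSC against Sphere, 0.27 for iCSC against Monolayer and -1.65 for Sphere against Monolayer, beside 0.01, 0.02 and 0.01 over all tested genes. With values under background held at log2 5 these medians were 1.48, 0.27 and -1.61. In Sphere against Monolayer, the EFNA3 call (-0.82 ± 0.19, adjusted p = 0.00993) was lost without Monolayer replicate 1 (0.0614) and without Sphere replicate 1 (0.0557, range 0.00488 to 0.0614).

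**Figure D3:**
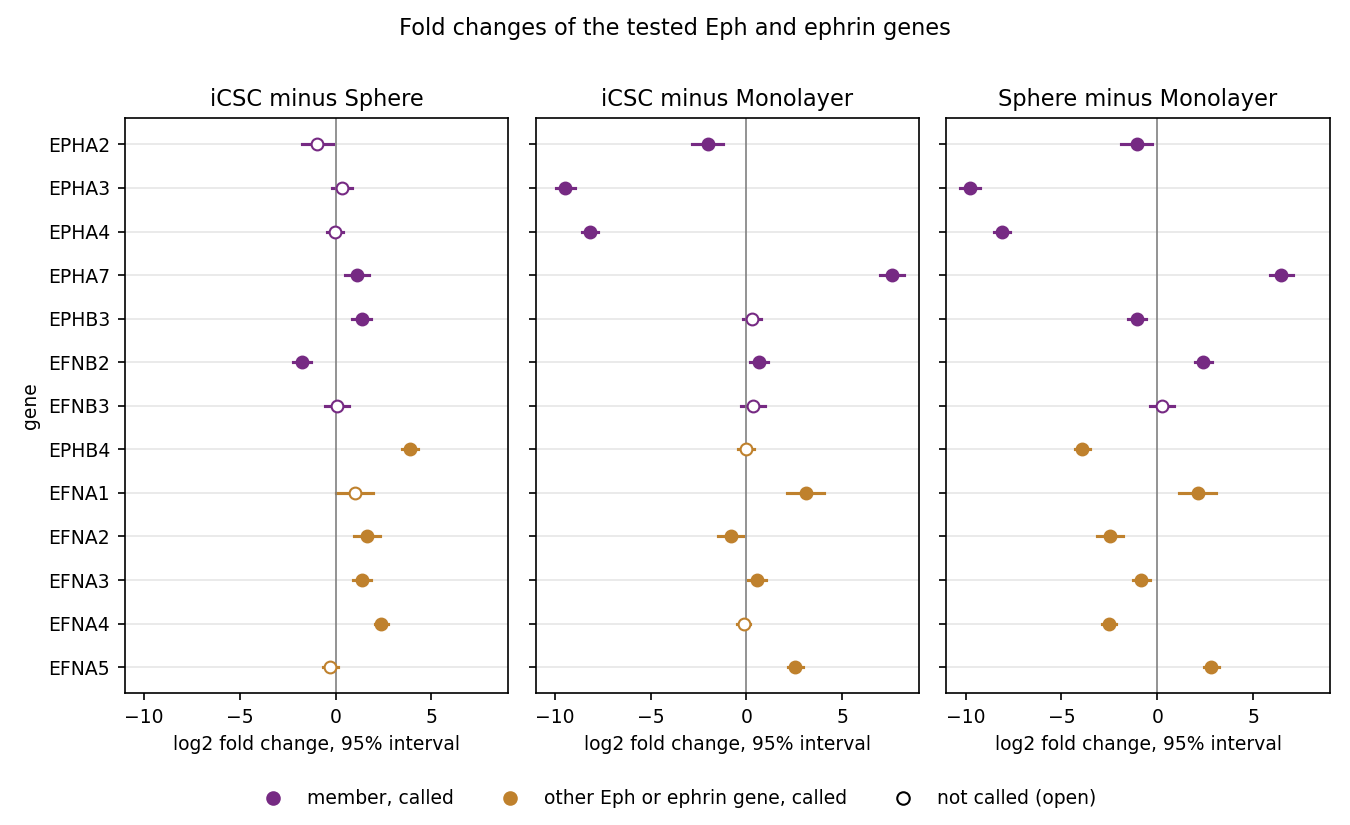
Log2 fold changes (horizontal axis) with 95% intervals of the 13 tested Eph and ephrin genes, 7 of the named set and 6 others, in the 3 comparisons. Filled points passed the test at an adjusted p under 0.05, and open points did not. EPHB4 and EFNA4 lie to the right in iCSC minus Sphere, to the left in Sphere minus Monolayer and near 0 in iCSC minus Monolayer. Against Monolayer, the plotted sizes for EPHA3, EPHA4, EPHA7 and EFNA1 involve values under background and are not measured folds.

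Genes that carry the Eph signal inside the cell were taken as lists from general knowledge. Of 18 adaptors, kinases and phosphatases at the receptors, 14 were tested, with 5 called between iCSC and Sphere (4 higher), 11 between iCSC and Monolayer (8 higher) and 8 between Sphere and Monolayer (5 higher). Over all tested genes the shares called were 38.5%, 55.6% and 59.0%, against 35.7%, 78.6% and 57.1% of this list. The list medians were 0.12, 0.47 and 0.05 for iCSC against Sphere, iCSC against Monolayer and Sphere against Monolayer, and 0.12, 0.47 and 0.06 with values held at log2 5. FYN, a Src family kinase that both Eph receptors and ephrins engage, averaged 10.35 in iCSC, 10.53 in Sphere and 6.85 in Monolayer. It was 3.50 ± 0.14 higher in iCSC and 3.68 ± 0.14 higher in Sphere than in Monolayer (log2, SE, limma, adjusted p = 5.72e-06 and 3.41e-06). GRB10, an adaptor that binds EphB receptors, averaged 7.52 in iCSC, 2.51 in Sphere and 2.53 in Monolayer, and the iCSC level was at least 5.74-fold above both others (adjusted p = 4.20e-06 against Sphere and 2.72e-06 against Monolayer), a direction set by the filter. SHB, an adaptor protein, averaged 5.99 in iCSC, 3.66 in Sphere and 7.34 in Monolayer. It exceeded its Sphere level at least 1.98-fold in iCSC and was at least 5.05-fold lower in Sphere than in Monolayer (adjusted p = 0.000330 and 1.96e-05), and both directions were set by the filter, which it passed through iCSC and Monolayer.

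Of 9 genes of ephrin-B reverse signalling 8 were tested, with 4 higher and 2 lower in iCSC than in Sphere, 3 higher and none lower in iCSC than in Monolayer, and 6 higher and 1 lower in Sphere than in Monolayer. These are 75.0%, 37.5% and 87.5% of the list, beside 38.5%, 55.6% and 59.0% of all tested genes. The medians were 0.21, 0.38 and 0.57, and 0.21, 0.30 and 0.57 with values held at log2 5. GRIP1, counted as higher in Sphere than in Monolayer, averaged 4.80 in iCSC, 5.57 in Sphere and 3.22 in Monolayer. Both Monolayer arrays, 1 Sphere array and 1 iCSC array were under background. It was called higher in Sphere than in Monolayer (limma, adjusted p = 0.0130), and no Monolayer array carried it through the filter. With values held at log2 5 the difference was 1.70-fold. This is no lower bound, since 1 Sphere array was itself raised to log2 5. PTPN13, a phosphatase that binds the tail of ephrin-B ligands, averaged 9.32 in iCSC, 8.41 in Sphere and 5.73 in Monolayer. It was 3.59 ± 0.28 higher in iCSC and 2.68 ± 0.28 higher in Sphere than in Monolayer (log2, SE, limma, adjusted p = 0.000102 and 0.000294). Of 6 genes that cleave or dephosphorylate the receptors and ligands, 3 were tested, with 2 higher in iCSC than in Sphere, 2 higher in iCSC than in Monolayer, and 1 higher and 2 lower in Sphere than in Monolayer, where 38.5%, 55.6% and 59.0% of all tested genes were called in either direction. The medians were 0.62, 0.29 and -0.33 on either scale. ADAM10, the protease that sheds ephrins, was 0.77 ± 0.14 higher in iCSC than in Sphere and changed by -1.02 ± 0.14 in Sphere against Monolayer (adjusted p = 0.00569 and 0.000946). PTPRO, a receptor phosphatase that acts on Eph receptors, has no settled direction, since 2 further probe sets were called against its leading one in both comparisons with Monolayer, and it is 1 of the genes counted as higher in each of them. In iCSC against Sphere its leading probe set was not called (-0.15, limma, adjusted p = 0.713), while the 2 further probe sets were called lower. That count therefore also depends on the probe set.

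**Figure D4:**
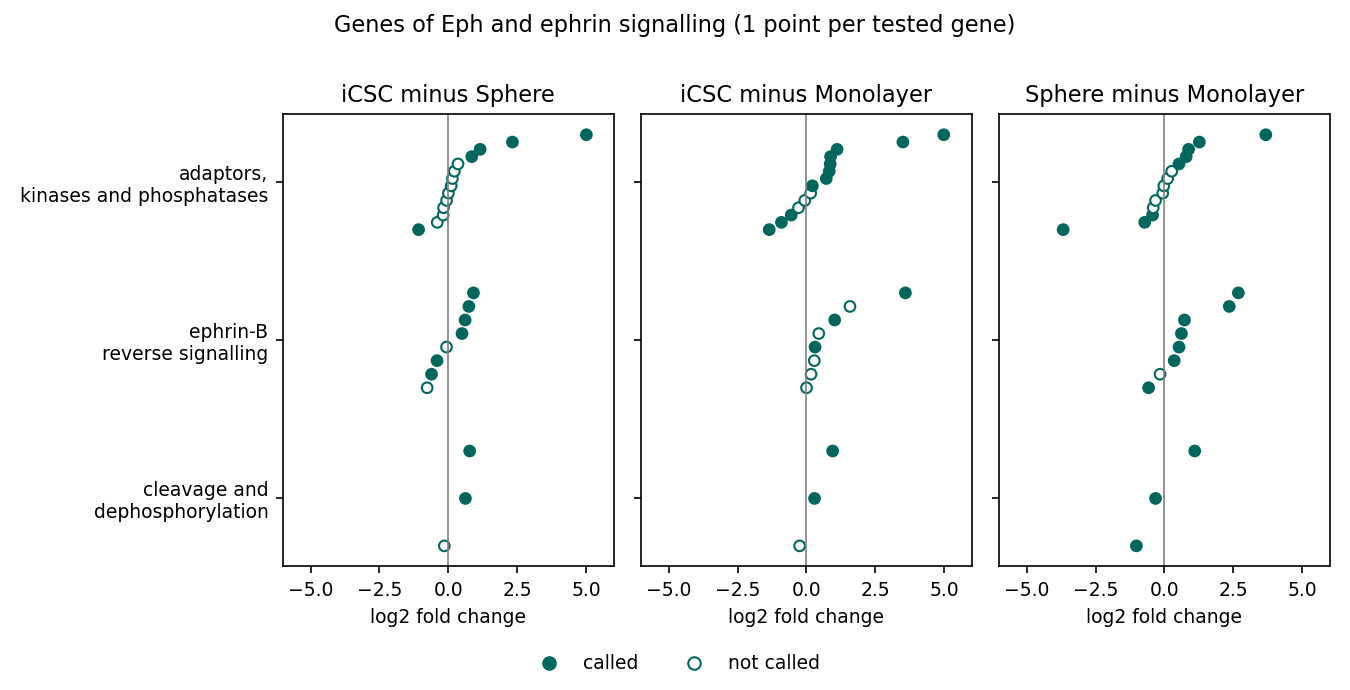
Log2 fold changes (horizontal axis) of the tested genes of Eph and ephrin signalling, 1 point per gene, in 3 lists and 3 comparisons. Filled points passed the test at an adjusted p under 0.05. Most points lie near 0. GRB10 lies farthest out in both iCSC panels, and SHB and FYN do in Sphere minus Monolayer. Changes of GRB10, GRIP1 and, in comparisons with Sphere, SHB involve values under background, so their plotted size is not a measured fold.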

How the data were processed

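Per the labels' protocols, 200 ng of total RNA per sample were amplified and labelled with biotin. The deposited values are log2 signals per probe set, made by the authors with GCRMA, which with Partek is named in the submitters' processing notes, but no version or setting is stated there. Values under log2 5 were treated as not above background, since their differences are not measured folds. Probe sets were named by the platform annotation, with symbols updated through Entrez identifiers to RefSeq (GRCh38.p14). Of 54675 probe sets, 41091 had a single symbol, 1801 several and 11721 none, and 62 were controls.

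A probe set entered at log2 5 or more on at least 2 of 6 arrays, and the one with the highest mean stood for its gene, which left 10459 genes. limma 3.58.1 (R 4.3.3) fitted a mean per culture over all arrays with trended empirical Bayes variances. Tests were two-sided, with Benjamini-Hochberg adjustment over all tested genes and calls at an adjusted p under 0.05. The model was tested on simulated arrays. The number of arrays limits the precision.

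The genes and the lists were chosen with earlier results of these data known. The text names all 10 genes, up to 4 called genes per list and comparison by size of change, and the 3 genes most like the one with the widest range. A further list of signalling genes is not reported here. PTPRO is mentioned for its disagreeing probe sets. Alternatives changed the filter, a floor at log2 5, the scaling, the variance model, the choice of probe sets, the arrays fitted and a replicate block. Figures used matplotlib 3.10.9 in Python 3.11.15.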

Additional observations from a re-analysis of the deposited data

How the results depend on the processing

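The gene-level changes of the 13 tested Eph and ephrin genes kept their side of the threshold in 611 instances over all alternatives, lost the call in 32 and gained it in 5, and none reversed. Of the named set, 3 were called in iCSC against Monolayer without variance moderation, against 5. With the filter at log2 7, EPHB3, EFNA1 and EFNA3 were not tested. Of the other family genes, 4 were called in iCSC against Monolayer, but 2 with no filter, with the filter at log2 7 and without variance moderation, and 2 to 4 when 1 array was left out. EFNA3 in that comparison lost its call in 8 of 16 alternatives (adjusted p 0.0260 to 0.170) and EFNA2 in 6 of 17 (0.0260 to 0.231). Over all genes, iCSC against Sphere gave 4022 calls, 2281 without variance moderation and 2574 to 3883 when 1 array was left out, with the lowest count without Sphere replicate 1. EPHA3, under background in both spheroid cultures, passed in iCSC against Sphere without iCSC replicate 2 (adjusted p = 0.0486). The labels give the cultures the same replicate numbers, but nothing ties same-numbered arrays together, and their deviations correlated at 0.17, -0.05 and 0.02 between cultures. With the replicate block 6219, 4106 and 5891 genes were called in Sphere against Monolayer, iCSC against Sphere and iCSC against Monolayer, and 6, 3 and 5 of the named set. The block moved the other family genes in 2 instances, with EFNA1 called in iCSC against Sphere (0.0413) and EFNA3 no longer called in iCSC against Monolayer (0.0604). The cause of these changes was not tested. A change within or from values under log2 5 is limited by signal over background.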
